A study of Mus musculus with 20 samples.

Results

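Cycling oligodendrocyte precursors were examined in the P5 single-cell library of Nestin-EGFP+ cells, which were sorted from the mouse dentate gyrus (DG). A cell was counted as an oligodendrocyte precursor when it had at least 1 UMI (unique molecular identifier, one count per captured RNA molecule) of *Pdgfra*, at least 4 summed UMIs of *Pdgfra*, *C1ql1*, *Lhfpl3* and *Matn4*, and at most 2 UMIs of *Gpr17*. It was counted as cycling when it also had at least 2 summed UMIs of *Mki67*, *Top2a* and *Cdk1*. Of 13684 P5 cells kept, 2354 passed the precursor gate, and 332 of these were cycling. The 1668 precursors with 0 UMIs of the 3 cycle genes served as the comparison, and the 354 with exactly 1 UMI were kept apart. Over the 3 ages the series held 21832 kept cells.

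Oligodendrocyte precursors are glial cells that divide during postnatal life, and their daughters either stay precursors or exit the cycle and become committed cells that later make myelin. PDGF receptor alpha, encoded by *Pdgfra*, is the receptor through which astrocyte- and neuron-derived PDGF keeps them dividing, and GPR17 marks the step at which they commit. A dividing cell first copies its DNA in S phase, for which E2F factors switch on replication and nucleotide genes, and then enters G2 and mitosis, for which B-type cyclins and the spindle and kinetochore genes are switched on. Ki-67 (*Mki67*), topoisomerase II alpha (*Top2a*) and CDK1 (*Cdk1*) are made in dividing cells, mainly from S phase to mitosis.

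The study asked how the DG stem cell lineage changes with age, and sorted EGFP-positive, 7-AAD-negative cells at P5, 12w and 24w for 10X Genomics sequencing. The mice carried EGFP under *Nestin* regulatory sequence on a C57BL/6 background, and no treatment is stated for the mice that were sorted. The DG was microdissected and dissociated with papain. Each age was 1 library, and the sources used here do not give how many animals went into it, so no test between conditions was possible. EGFP stands for activity of the transgene in the sorted cells and does not by itself show that a precursor made Nestin. The P5 barcodes had a median of 4383.5 UMIs, the lowest barcode listed had 1495, and the kept cells held 98.2% of all UMIs. Of the kept cells' barcodes, 98 were shared between the P5 and 12w libraries and 63 between P5 and 24w, against 99.3 and 51.9 if barcodes were drawn at random, and 3 cycling precursors carried a barcode shared with 24w.

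Levels below are UMIs pooled over the cells of a group and scaled to CPM (counts per total of 1000000). Intervals are exact 95% intervals, Poisson for a level, conditional binomial for a ratio of CPM (with 0.5 UMIs added to each side for the ratio itself) and binomial for a share, and all cover counting error only. The cells were chosen on the same measurements that are compared, so the values describe how the 332 cells differ from the 1668 and test nothing.

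The windows around the starts of 6 cell cycle genes are shown because the results below turn on a mitosis list and a replication list, whose promoters held 2 short motifs in different shares. The windows run from 250 bases before to 50 bases after a gene start of RefSeq on GRCm38.p6, each written 5′ to 3′ on the strand of its gene. Capitals mark matches on either strand to TTTGAA (the CHR element known from G2/M genes), to CCAAT (the CCAAT box) or to TTCCCGC (an E2F-type motif), and no 2 marked matches overlapped. *Ccnb2* (cyclin B2) lies at chr9:70421505-70421804 on the minus strand, *Cdc20* (activator of the anaphase-promoting complex) at chr4:118437294-118437593 on the minus strand, *Plk1* (a mitotic kinase) at chr7:122159185-122159484 on the plus strand, and *Hmmr* (a spindle protein) at chr11:40733388-40733687 on the minus strand. *Mcm3* (a subunit of the replicative helicase) lies at chr1:20820263-20820562 and *Dtl* (part of the ligase that destroys Cdt1 in S phase) at chr1:191575495-191575794, both on the minus strand.
Ccnb2: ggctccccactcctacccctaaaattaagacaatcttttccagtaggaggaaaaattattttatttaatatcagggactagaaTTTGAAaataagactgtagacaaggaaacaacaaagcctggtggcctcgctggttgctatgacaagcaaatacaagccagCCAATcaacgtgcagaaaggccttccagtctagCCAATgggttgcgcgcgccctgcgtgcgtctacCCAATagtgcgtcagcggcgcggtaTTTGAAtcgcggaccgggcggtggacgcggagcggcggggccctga
Cdc20: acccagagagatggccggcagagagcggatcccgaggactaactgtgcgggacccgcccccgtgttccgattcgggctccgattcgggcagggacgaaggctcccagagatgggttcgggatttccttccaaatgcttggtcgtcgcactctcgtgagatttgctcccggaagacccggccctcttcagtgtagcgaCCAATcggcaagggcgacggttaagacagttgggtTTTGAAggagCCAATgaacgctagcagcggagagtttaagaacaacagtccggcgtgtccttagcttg
Plk1: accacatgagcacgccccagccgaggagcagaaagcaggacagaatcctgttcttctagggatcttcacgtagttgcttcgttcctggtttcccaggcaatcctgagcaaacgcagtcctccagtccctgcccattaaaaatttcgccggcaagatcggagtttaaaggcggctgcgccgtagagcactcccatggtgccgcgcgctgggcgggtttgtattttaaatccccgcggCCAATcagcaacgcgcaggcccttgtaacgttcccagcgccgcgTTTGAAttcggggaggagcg
Hmmr: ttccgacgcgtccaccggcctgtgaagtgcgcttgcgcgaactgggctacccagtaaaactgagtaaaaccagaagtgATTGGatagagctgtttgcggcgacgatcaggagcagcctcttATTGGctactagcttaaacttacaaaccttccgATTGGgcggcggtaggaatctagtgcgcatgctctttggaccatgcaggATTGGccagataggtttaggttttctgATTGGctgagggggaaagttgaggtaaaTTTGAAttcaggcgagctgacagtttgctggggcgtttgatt
Mcm3: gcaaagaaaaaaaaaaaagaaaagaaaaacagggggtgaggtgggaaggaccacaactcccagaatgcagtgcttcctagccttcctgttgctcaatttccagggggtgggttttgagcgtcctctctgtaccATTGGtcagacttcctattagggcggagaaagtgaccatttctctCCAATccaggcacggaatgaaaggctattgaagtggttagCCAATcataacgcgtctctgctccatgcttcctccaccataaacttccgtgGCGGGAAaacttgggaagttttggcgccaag
Dtl: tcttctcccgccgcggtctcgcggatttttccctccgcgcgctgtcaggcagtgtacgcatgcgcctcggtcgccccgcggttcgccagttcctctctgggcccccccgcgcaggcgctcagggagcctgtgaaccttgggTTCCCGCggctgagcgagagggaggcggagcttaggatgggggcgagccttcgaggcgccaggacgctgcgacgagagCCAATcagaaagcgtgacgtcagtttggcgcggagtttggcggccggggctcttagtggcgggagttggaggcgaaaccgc

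Of the 32851 windows in the RefSeq table, 17.9% held TTTGAA, 37.4% held CCAAT and 4.6% held TTCCCGC. Among the 11964 windows of genes compared here the shares were 11.5%, 37.7% and 8.36%, and 79.5% of the genes compared had a window. Of the 81 genes in the mitosis list, 67 had a window, and TTTGAA lay in 44 of their 74 windows (59.5%) and CCAAT in 55 (74.3%), while TTCCCGC lay in 6 (8.11%). Of the 48 genes in the replication list, 40 had a window, and TTTGAA lay in 6 of their 49 windows (12.2%), CCAAT in 31 (63.3%) and TTCCCGC in 20 (40.8%). TTTGAA and CCAAT stood together in 38 mitosis windows (51.4%) and 4 replication windows (8.16%), beside 6.95% of all windows and 4.61% of those of genes compared. Read against the genes compared, TTCCCGC in the mitosis windows and TTTGAA in the replication windows were near the background share. *Ccnb2* held 2 TTTGAA matches, one of them 4 bases past the start, and *Hmmr* held 5 CCAAT matches beside its TTTGAA. A match describes the letters of the window and is not evidence of a bound factor.

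The gate held oligodendrocyte lineage cells by genes it did not use. *Olig1*, a bHLH factor of the lineage, had a UMI in 98.8% of the 332 cycling cells, *Olig2*, its paralog and the factor that specifies the lineage, in 90.1%, *Sox10*, a driver of oligodendrocyte genes, in 62.7%, and *Cspg4*, the NG2 proteoglycan of precursors, in 48.8%. In 482 neurons of the same library, at a median of 5357 UMIs, the shares were 63.3%, 31.5%, 8.92% and 3.11%. Among the 3 genes of the rule, *Top2a* had a UMI in 88.0% of the 332 cells (1017 UMIs in all), *Mki67* in 66.0% (496 UMIs) and *Cdk1* in 60.8% (469 UMIs). All 3 were seen in 118 cells (35.5%). The summed count had a median of 4 and a maximum of 39, and 94 cells (28.3%) stood at the limit of 2, next to the 354 precursors with 1 UMI outside it. At the limits of the gate, 31 cycling cells had a summed gate count of 4 and 69 had *Gpr17* at 2. Just outside them, 35 cells with a gate sum of 3 (18.4% of such cells) and 49 cells with *Gpr17* at 3 (28.0%) also had 2 or more cycle UMIs.

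The cycling share of the P5 precursors was 14.1% (12.7 to 15.6). It differed with depth, and a deeper cell gives the rule more UMIs to meet. In precursors under 3000 UMIs the share was 8.48% (89 of 1050), from 3000 to below 6000 UMIs it was 10.4% (88 of 843), and from 6000 UMIs it was 33.6% (155 of 461). After each cell was thinned to 1400 UMIs, the share with 2 or more cycle UMIs was 6.19%, 3.56% and 9.54% in the same classes and 5.90% overall. The cycling cells had a median of 5681.5 UMIs (1534 to 19352) and 2454 genes, the precursors with 1 cycle UMI 3900.5 UMIs, and those with 0 cycle UMIs 2994 UMIs and 1639.5 genes. Larger RNA content of dividing cells and the preference of the rule for deep cells cannot be told apart in these counts.

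In the same library the same count of cycle UMIs was reached by 22.6% of neuronal progenitors (329 of 1456, marked by *Eomes*, *Neurog2*, *Neurod1* and *Neurod4*), 8.43% of astroglia (467 of 5541, marked by *Slc1a3*, *Slc1a2*, *Aqp4* and *Hopx*) and 5.19% of neurons (25 of 482, marked by *Stmn2*, *Tubb3* and *Dcx*). In the neuron class, in which division is not usual, the mitosis list summed to 2408 CPM, and whether free RNA, doublets or dividing cells gave these UMIs was not tested. Thinned to 1400 UMIs the shares were 8.93%, 3.07% and 1.87%, so the precursors, at 5.90%, lay between neuronal progenitors and astroglia and above neurons. The neurons had a median of 5357 UMIs against 3321.5 in the precursor gate. In the adult libraries the gate found few cells. At 12w 0 of 26 precursors cycled, which allows a share of up to 11.5% by 3 counts of the total and up to 13.2% by the exact interval, and at 24w 1 of 9 did (11.1%, 0.281 to 48.2). The 26 cells had a median of 2567.5 UMIs, a depth at which the P5 share was also lower, so a difference in the share between the ages was not detectable at this number and depth of cells. The mitosis list summed to 1912 CPM (1603 to 2263) in the 26 precursors of 12w and 1751 CPM in the 9 of 24w, beside 3772 CPM (3733 to 3811) in all 2354 P5 precursors and 1609 CPM in those with 0 cycle UMIs. These levels come from 1 library at each age and from cells of unlike depth, so no difference between the ages is read from them.

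**Figure D1:**
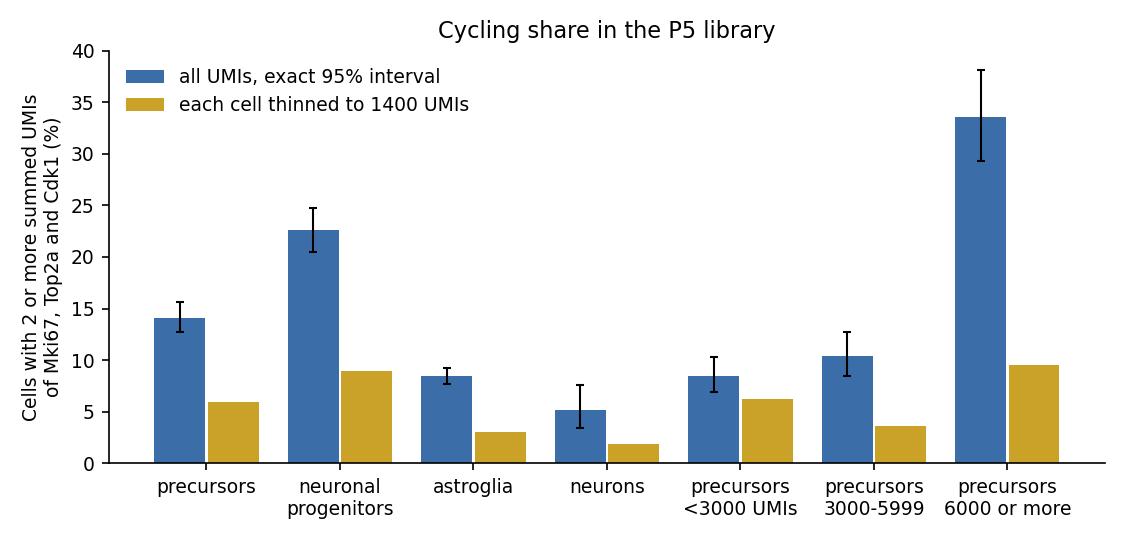
Share of P5 cells with 2 or more summed UMIs of *Mki67*, *Top2a* and *Cdk1* (y axis, percent) in 4 cell classes and, for precursors, in 3 classes of depth. Blue bars use all UMIs with exact 95% binomial intervals and yellow bars use each cell thinned to 1400 UMIs. Precursors stood at 14.1% and 5.90%, and the deepest class at 33.6% and 9.54%.

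The share also varied with the commitment marker. It was 12.1% in precursors with 0 UMIs of *Gpr17*, 15.8% with 1 and 16.4% with 2, and 27.9% (96 of 344) in cells with 3 or more, which the gate leaves out. Thinned, the last class stood at 11.0% and the 3 classes inside the gate at 5.41%, 7.00% and 5.23%. The share of the *Gpr17* class of 3 or more was thus the larger one before and after thinning, and 92 of its 96 cycling cells had 3 to 9 UMIs. Over the summed gate genes the share was 12.2% at 4 to 7 UMIs, 14.5% at 8 to 15 and 17.5% at 16 or more, but 6.02%, 5.83% and 5.95% after thinning.

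Markers of other cell types were counted in the same cells. Of all kept P5 cells 8.47% were called doublets, of the cycling precursors 20.2% (67) and of the precursors with 0 cycle UMIs 14.1% (236). *Xist* and Y-linked UMIs stood together in 16.6% of the cycling cells and in 7.19% of the others. The 8 vascular markers summed to 561 CPM in cycling cells and 322 CPM in the others, with 3 or more UMIs in 25 cells (7.53%) and 46 cells (2.76%). The 8 astroglial markers summed to 2734 and 3423 CPM, with 3 or more UMIs in 86.4% and 80.5% of the cells, and the 10 neuronal markers to 1399 and 1422 CPM, with 3 or more in 64.2% and 44.8%, at median depths of 5681.5 and 2994 UMIs. The ependymal markers summed to 35.8 and 33.3 CPM, the erythroid markers to 63.8 and 119 CPM and the microglial markers to 1.93 and 18.0 CPM, with *C1qa*, *C1qc* and *Csf1r* at 0 UMIs in the cycling cells. Of the 10 neuronal markers 2 were at least 2-fold higher in cycling cells and 0 lower, beside 4.04% and 2.58% of all genes. Intervals lay above 1 for 3 of them and below 1 for 3, beside 13.8% and 14.1% of all genes compared. From 6000 UMIs the ratio of *Neurog2* was 2.173 (1.425 to 3.407) and that of *Eomes* 1.215 (0.8575 to 1.721). The part of all these markers in the differences below was not tested. A narrower set of markers was used to leave cells out. It held 24 markers of other types (the neuronal, vascular, microglial and ependymal lists without *Sox11*, *Tubb3* and *Stmn2*), with 3 or more UMIs in 41.6% and 28.3% of the cells, and the astroglial markers *Aqp4*, *Gja1* and *Slc1a2*, with 3 or more in 41.6% and 29.3%. Without doublets and without these cells 138 cycling cells and 885 others were left, which could still hold UMIs of the other markers, and the median log2 ratios of the main lists were 3.55 for mitosis, 1.17 for replication, -0.32 for precursor identity and -0.50 for committed and myelin genes.

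Across the transcriptome the cycling precursors stood highest for genes of mitosis. Of 11660 genes compared, 471 (4.04%) were at least 2-fold higher in the cycling cells and 301 (2.58%) at least 2-fold lower. The median over all genes with 20 or more UMIs was -0.03 on the log2 scale. In the mitosis list 78 of 81 genes were at least 2-fold higher, with a median log2 ratio of 3.33, and in the replication list 34 of 47, with a median of 1.28. The balance of the 2 directions was not stable. It turned, with 300 higher and 422 lower, among cells of 4000 to 8000 UMIs, with 222 and 461 after thinning to 1400 UMIs, and also in sets not matched for depth, such as cells with *Xist* only (240 and 314) or a limit of 4 cycle UMIs (511 and 550). Most of these sets held fewer cells. The limit of 20 UMIs applied to the group where a gene was higher, and over all cells the cycling pool held 2068269 UMIs against 6096695. The same limit was thus a higher CPM for the higher genes than for the lower ones. How far this set the balance was not tested. Among cells of 4000 to 8000 UMIs, 325 of the 471 higher genes had enough UMIs and 249 were again at least 2-fold higher, and 126 of the 301 lower genes had enough UMIs and 68 were again at least 2-fold lower. The mitosis list was chosen to show cell division and the cells were chosen by 3 genes of the same programme, so these counts describe the size of the difference.

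**Figure D2:**
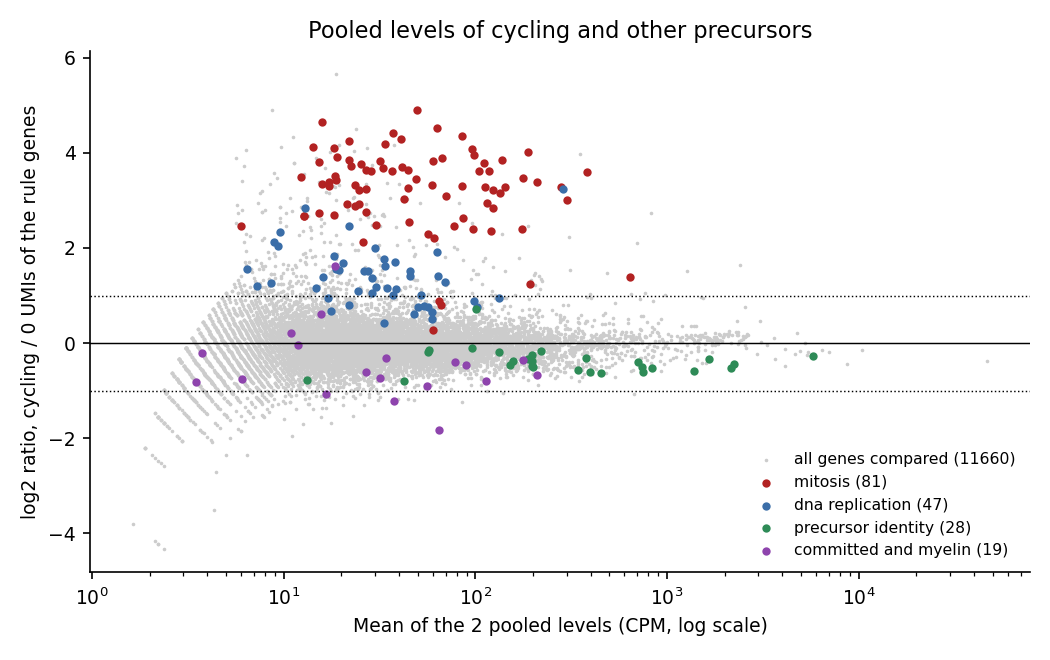
Each point is a gene, placed by the mean of its pooled levels in the 2 groups (x axis, CPM, log scale) and by its log2 ratio of cycling precursors to precursors with 0 cycle UMIs (y axis), with dotted lines at 2-fold. Mitosis genes (red) lie highest, replication genes (blue) lower but above 0, and precursor identity genes (green) just below 0.

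Among the genes with the highest lower bound of the ratio were *Pif1*, *Hmmr*, *Cenpe*, *Hist1h2ap*, *Cdca2*, *Cenpf*, *Prc1*, *Plk1* and *Esco2*. *Pif1*, a DNA helicase, stood at 36.8 CPM (76 UMIs) in cycling precursors and 0.656 CPM (4 UMIs) in the others, a ratio of 50.1 (21.0 to 211). *Hmmr* stood at 95.7 and 3.12 CPM, a ratio of 30.0 (19.2 to 52.1). *Cenpe*, the kinesin that carries chromosomes to the metaphase plate, stood at 121 and 5.25 CPM, a ratio of 22.8 (16 to 34.5). The histone gene *Hist1h2ap* stood at 661 and 41.8 CPM, a ratio of 15.8 (13.8 to 18.2), and *Esco2*, the acetyltransferase that secures sister chromatid cohesion in S phase, at 45.9 and 1.97 CPM, a ratio of 22.5 (12.8 to 46.8). Near-identical histone genes share reads, so the value of *Hist1h2ap* may hold reads of its copies.

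Cyclins and their partners of G2 and mitosis stood far apart between the groups. *Ccnb1*, cyclin B1, the partner of CDK1, stood at 258 CPM in cycling precursors and 17.7 CPM in the others, a ratio of 14.5 (11.8 to 18.1). *Ccna2*, cyclin A2, used in S phase and G2, stood at 208 and 15.1 CPM, and *Ccnb2* at 126 and 14.8 CPM, a ratio of 8.49 (6.68 to 10.9). *Plk1* stood at 77.8 and 3.94 CPM, a ratio of 19.4 (12.8 to 31.8). *Aurkb*, the kinase of the chromosomal passenger complex, was 14.9-fold higher (11.1 to 20.6), and its partner survivin, *Birc5*, 10.4-fold (8.99 to 12.2).

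Genes of the spindle, the kinetochore and the exit from mitosis followed. *Kif11*, the kinesin that separates the spindle poles, was 14.3-fold higher, *Kif23*, a kinesin of the midzone, 18.3-fold, and *Prc1*, the bundler of midzone microtubules, 16.9-fold (13.1 to 22.5). *Cenpa*, the centromeric histone, stood at 510 and 52.2 CPM, a ratio of 9.76 (8.61 to 11.1), and *Bub1b*, a checkpoint kinase of the kinetochore, at 41.1 and 2.79 CPM. *Ube2c*, the ubiquitin-conjugating enzyme of the anaphase-promoting complex, stood at 705 and 58.4 CPM, and *Cdc20* at 205 and 21.0 CPM, a ratio of 9.74 (8 to 12.0). *Pttg1*, securin, which holds sister chromatids together until anaphase, was the only one of the 81 whose interval included 1, at 66.2 and 54.6 CPM (ratio 1.22, 0.987 to 1.48).

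The S phase genes stood higher by smaller ratios. In the replication list all 47 genes compared had an interval above 1, as had 13.8% of all genes compared, and the summed level was 2858 CPM against 1117 CPM. *2810417H13Rik*, which encodes the PCNA-binding protein Paf15, had the largest ratio of the list, 9.46 (8.37 to 10.7), at 522 and 55.1 CPM. *Mcm5*, a helicase subunit, stood at 51.7 and 15.3 CPM, a ratio of 3.39 (2.55 to 4.53), *Mcm3* was 2.88-fold higher, *Dtl* 3.09-fold and *Pcna*, the sliding clamp, 2.65-fold (2.17 to 3.23). *Slbp*, which binds histone mRNAs, was 1.86-fold higher (1.59 to 2.17).

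Most nucleotide supply and repair genes stood higher too. Of 19 nucleotide genes 9 were at least 2-fold higher and 15 had an interval above 1, with a median log2 ratio of 0.95. Over all genes compared these shares were 4.04% and 13.8%. In the 3 depth classes, from shallow to deep, 6 of 17, 9 of 18 and 14 of 19 nucleotide genes had an interval above 1. Over all genes in these classes 6.05%, 6.73% and 11.6% had one. *Mthfd1*, a folate enzyme, had the lowest ratio (0.888, 0.592 to 1.28). *Tk1*, thymidine kinase, stood at 90.9 and 11.8 CPM, a ratio of 7.66 (5.84 to 10.3), *Rrm2*, the regulated subunit of ribonucleotide reductase, was 5.79-fold higher (4.81 to 7.00), and *Tyms*, thymidylate synthase, 3.36-fold (2.82 to 4.02). Of 18 recombination and checkpoint genes 12 were at least 2-fold higher and 13 had an interval above 1 (median 1.76), among them *Brca1*, a recombination factor, at 5.52-fold (3.12 to 10.3).

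The G1 machinery divided into genes that stood higher and genes near equality. In the 3 depth classes, from shallow to deep, 3 of 15, 7 of 17 and 9 of 19 genes had an interval above 1. The shares over all genes in these classes were 6.05%, 6.73% and 11.6%. Over all depths 5 of 19 genes were at least 2-fold higher, beside 4.04% of all genes compared. Cyclin E, which starts S phase, was among them, with *Ccne1* at 3.86-fold (2.74 to 5.49) and *Ccne2* at 5.20-fold (3.21 to 8.74), as were the late repressors *E2f7* at 6.96-fold (3.53 to 15.3) and *E2f8* at 8.23-fold (4.49 to 16.8). The D-type cyclins, which answer to growth factors, stood near equality, with *Ccnd1* at 169 and 204 CPM (ratio 0.827, 0.731 to 0.931), *Ccnd2* at 498 and 431 CPM (1.16, 1.07 to 1.24) and *Ccnd3* at 97.7 and 84.1 CPM (1.16, 0.981 to 1.37). Within the 3 depth classes the *Ccnd1* ratio was 0.817, 0.922 and 1.02, each with an interval that included 1.

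Among the inhibitors of cyclin-dependent kinases the INK4 members *Cdkn2c* and *Cdkn2d* stood higher in the dividing cells. *Cdkn2c*, which encodes p18 INK4c, an inhibitor of CDK4 and CDK6, stood at 230 CPM in cycling precursors and 46.9 CPM in the others, a ratio of 4.90 (4.23 to 5.70). Its ratio was 4.19, 5.25 and 4.23 in the 3 depth classes, each with an interval above 1. *Cdkn2d*, which encodes p19 INK4d, stood at 174 and 50.4 CPM, a ratio of 3.45 (2.95 to 4.03). The KIP members were closer to equality, with *Cdkn1b* (p27), which halts precursors that leave the cycle, at 1.41 (1.05 to 1.87), *Cdkn1a* (p21) at 1.31 (0.612 to 2.52) and *Cdkn1c* (p57) at 0.720 (0.444 to 1.10).

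Many chromatin genes stood higher in the cycling cells as well. Of 35 genes 17 were at least 2-fold higher, beside 4.04% of all genes compared. The median log2 ratio was 0.95, and the summed level was 14350 against 5808 CPM. *Hmgb2*, a chromatin protein of dividing cells, stood at 1440 and 215 CPM, a ratio of 6.70 (6.28 to 7.16). The histone variants *H2afz* and *H2afx* stood at 3659 and 1165 CPM (3.14, 3.04 to 3.24) and at 506 and 108 CPM (4.67, 4.23 to 5.15). *Lmnb1*, lamin B1 of the nuclear envelope, was 2.84-fold higher (2.49 to 3.25) and *Ezh2*, the methyltransferase of Polycomb repressive complex 2, 2.73-fold (2.32 to 3.19).

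*Setd8* (named *Kmt5a* in RefSeq), which places the first methyl group on lysine 20 of histone H4 and is the enzyme the study followed, stood at 102 CPM (211 UMIs) in cycling precursors and 41.2 CPM (251 UMIs) in the others. The ratio was 2.48 (2.05 to 2.99), and it was 3.19, 2.18 and 2.16 in the classes under 3000, from 3000 to below 6000 and from 6000 UMIs. The enzymes that add the further methyl groups did not stand higher, with *Suv420h1* at 24.2 and 34.0 CPM (0.717, 0.512 to 0.974) and *Suv420h2* at 28.5 and 31.0 CPM (0.926, 0.675 to 1.24). In neuronal progenitors the log2 ratio of *Setd8* between cycling and other cells was 0.35 and in astroglia 1.25, beside 1.31 in precursors, and the difference between the lineages was not tested.

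Over classes of the rule genes the groups of genes followed different courses. With 0, 1, 2 to 3, 4 to 7 and 8 or more cycle UMIs per cell, the mitosis list summed to 1609, 2637, 5722, 10270 and 16370 CPM. The replication list reached 1117, 1528, 2444, 3547 and 2779 CPM and so was highest in the fourth class. The chromatin list stood at 5808, 7517, 9780, 14160 and 18730 CPM. The precursors with 1 cycle UMI, which are in neither group, lay nearer to those with 0 UMIs in all 3 lists. Median depth also differed between these classes, from 2994 to 8706.5 UMIs.

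**Figure D3:**
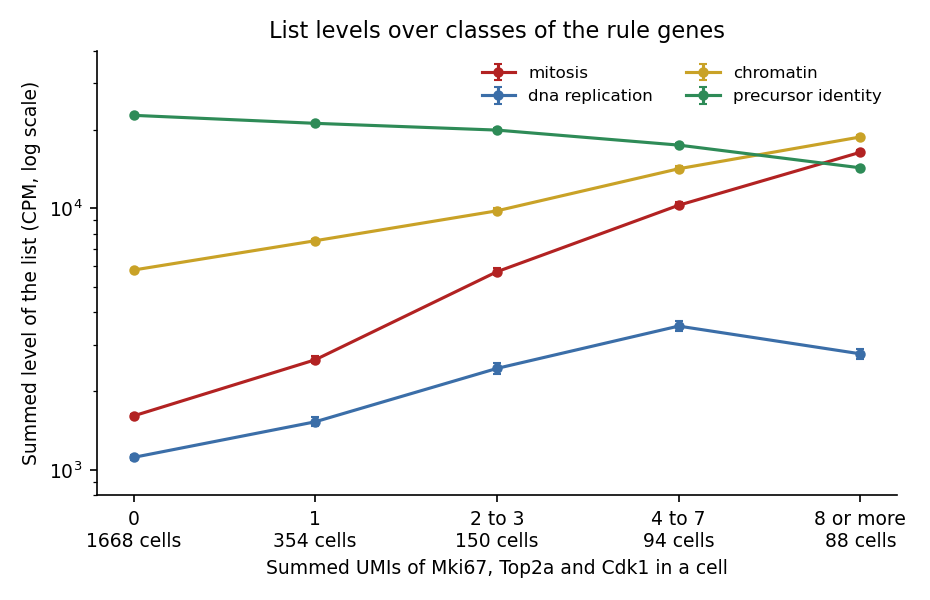
Summed level of 4 gene lists (y axis, CPM, log scale, bars 95% Poisson intervals) in precursors grouped by their summed UMIs of *Mki67*, *Top2a* and *Cdk1* (x axis, with the number of cells). Mitosis and chromatin lists were higher in each further class, the replication list was highest at 4 to 7 UMIs, and the precursor identity list went from 22660 to 14280 CPM.

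Genes of precursor identity stood slightly lower in the pooled cycling cells, and the single genes differed less when cells of like depth were compared. None of the 28 genes was 2-fold higher or lower, which is near the 4.04% and 2.58% of all genes compared. The median log2 ratio was -0.42, and 23 of the 28 had an interval below 1, as had 14.1% of all genes compared. *Olig1* stood at 1900 and 2595 CPM (ratio 0.732, 0.707 to 0.758), *Olig2* at 613 and 807 CPM (0.760, 0.714 to 0.808) and *Sox10* at 172 and 223 CPM (0.771, 0.684 to 0.867). Within the classes under 3000, from 3000 to below 6000 and from 6000 UMIs the median of the list was 0.00, 0.00 and -0.13, with 4, 5 and 8 intervals below 1 and 2, 1 and 1 above it. Over all genes with 20 or more UMIs in these classes 4.16%, 4.61% and 9.44% had an interval below 1 and 6.05%, 6.73% and 11.6% one above it. The *Olig1* ratio was then 0.968, 0.957 and 1.02, that of *Olig2* 1.05, 1.01 and 1.02, that of *Sox10* 1.19, 1.08 and 0.963 and that of *Cspg4* 1.08, 1.02 and 1.05, all with intervals that included 1. The summed level of the list remained below that of the other precursors, at ratios of 0.965 (0.937 to 0.993), 0.914 (0.892 to 0.935) and 0.798 (0.784 to 0.811). A sum gives most weight to the most abundant genes, whereas the median weighs each gene alike. In the precursors with 0 cycle UMIs the summed level itself went from 26920 to 22430 and 18830 CPM over these classes. Depth also differed within a class. The medians of cycling and other precursors were 2114 and 2012, 4422 and 4095, and 8733 and 7332 UMIs from shallow to deep. The part of this remaining difference in the ratios by depth was not tested.

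*Pdgfra*, the mitogen receptor, gave the same contrast between pooled values and those within depth classes. It is a gate gene, so at least 1 UMI in each cell was fixed by the rule, and a shallow cell with that UMI has a high CPM. Pooled it stood at 704 CPM in cycling precursors and 942 CPM in the others (0.747, 0.705 to 0.792). In the 3 depth classes the levels were 1664 and 1529 CPM, 940 and 853 CPM, and 513 and 496 CPM, ratios of 1.09, 1.10 and 1.03 whose intervals included 1. Between 4000 and 8000 UMIs, at median depths of 6158.5 and 5326 UMIs, the ratio was 1.18 (1.07 to 1.30).

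*C1ql1*, which encodes a secreted C1q-like protein and is also a gate gene, stood lower at every depth. It stood at 433 CPM in cycling precursors and 907 CPM in the others, a ratio of 0.477 (0.444 to 0.512). The ratio was 0.579 (0.490 to 0.677) under 3000 UMIs, 0.768 (0.674 to 0.869) from 3000 to below 6000 and 0.800 (0.709 to 0.901) from 6000. The other gate genes *Lhfpl3* and *Matn4* had pooled ratios of 0.784 (0.716 to 0.856) and 0.637 (0.584 to 0.693). In each depth class 1 of the 4 gate genes had an interval below 1, and that gene was *C1ql1*. The median log2 ratio of the 4 was -0.19, 0.07 and 0.06 from shallow to deep.

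The inhibitor of differentiation *Id2* and the Notch target *Hes5* stood lower as well. *Id2*, an HLH protein that blocks bHLH factors, stood at 240.3 and 391.9 CPM, a ratio of 0.614 (0.556 to 0.676), and at 0.550, 0.663 and 0.503 in the 3 depth classes, each interval below 1. *Hes5*, a repressor of bHLH genes, stood at 346 and 488 CPM (0.710, 0.653 to 0.770), and its ratio was 0.930 (0.724 to 1.17), 0.800 (0.670 to 0.944) and 0.601 (0.538 to 0.670) by depth. The astroglial list was also lower in the same classes, at ratios of 0.804, 0.644 and 0.588. The part of astroglial RNA in the *Id2* and *Hes5* ratios was not tested. *Dll3*, a Notch ligand-like protein, stood at 48.8 and 78.1 CPM (0.628, 0.5 to 0.777) and *Dll1*, a Notch ligand, at 18.4 and 30.8 CPM (0.602, 0.409 to 0.848). These 2 ratios are pooled. By depth the *Dll3* ratio was 0.798 (0.4245 to 1.31), 0.701 (0.427 to 1.06) and 0.872 (0.619 to 1.22), each with an interval that included 1. *Dll1* was not examined by depth. Over the Notch and Id list the median was 0.05 with 1 of 19 genes 2-fold lower, beside 2.58% of all genes compared. *Id1* stood at 96.7 and 78.6 CPM (1.23, 1.04 to 1.46).

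*Nes*, whose regulatory sequence drives the sort, stood higher in the cycling cells. It stood at 44.0 and 24.9 CPM pooled, a ratio of 1.77 (1.35 to 2.30). By depth the ratio was 1.11 (0.258 to 2.79), 0.943 (0.394 to 1.82) and 1.82 (1.27 to 2.64), so only the deep class had an interval above 1.

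Genes of committed and myelinating cells stood lower in the pooled cycling precursors, and less so at like depth. Of 19 genes compared 3 were at least 2-fold lower and 1 higher, beside 2.58% and 4.04% of all genes. The median log2 ratio was -0.61. In the 3 depth classes, from shallow to deep, the median was -0.11, -0.26 and -0.55, and between 4000 and 8000 UMIs it was -0.19. Of 16 intervals in each class 2, 3 and 9 lay below 1 and 2, 1 and 0 above it. Over all genes 4.16%, 4.61% and 9.44% lay below 1 and 6.05%, 6.73% and 11.6% above it. *Mbp*, myelin basic protein, stood at 28.5 and 101 CPM, a ratio of 0.284 (0.212 to 0.368). A UMI of *Mbp* was seen in 16.3% and 13.5% of the cells, and in 5.12% and 6.415% after thinning. These shares were close, so the pooled gap lay mainly in the UMIs per cell that had it. *Cnp*, an early myelin enzyme, stood at 83.6 and 145 CPM (0.578, 0.487 to 0.680) and *Bcas1*, a marker of early myelinating cells, at 39.2 and 73.3 CPM (0.537, 0.416 to 0.678). *Enpp6*, *Nkx6-2*, *Mobp* and *Opalin* had 0 UMIs in the cycling cells. They also had too few UMIs in the other precursors to be among the genes compared. Their counts of 0 therefore do not show a difference between the groups.

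The myelin difference changed with depth. For *Mbp* the ratio was 1.04 (0.483 to 1.87) under 3000 UMIs, 0.487 (0.253 to 0.811) from 3000 to below 6000 and 0.127 (0.0855 to 0.179) from 6000, where the precursors with 0 cycle UMIs held 184 CPM. These are pooled ratios, and the share of cells with *Mbp* was not counted within the classes. *Cnp* was more even, at 0.708 (0.409 to 1.10), 0.609 (0.42 to 0.841) and 0.606 (0.48 to 0.759). *Cldn11*, a myelin tight junction protein that is also made outside the oligodendrocyte lineage, went the other way, at 28.0 and 9.19 CPM (3.05, 2.08 to 4.49). Its ratios by depth were 6.11 (2.125 to 15.94), 4.94 (2.187 to 10.7) and 1.66 (0.987 to 2.84), the last with an interval that included 1. The vascular list stood at ratios of 0.715, 0.909 and 1.03 and the astroglial list at 0.804, 0.644 and 0.588 in the same classes.

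**Figure D4:**
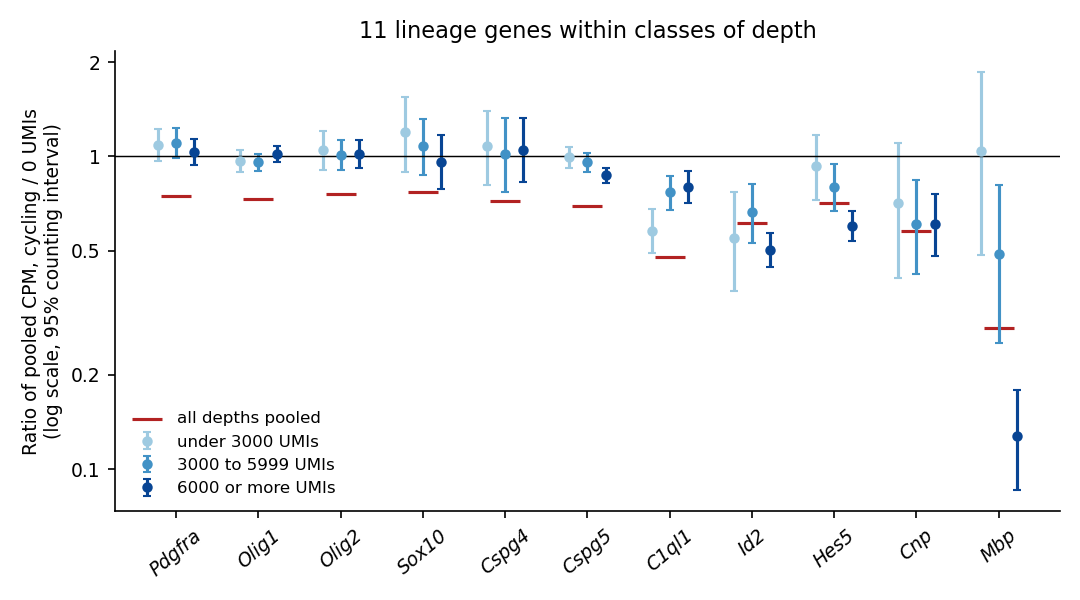
Ratio of pooled CPM, cycling precursors to precursors with 0 cycle UMIs (y axis, log scale), for 11 lineage genes within 3 classes of depth (blue points, bars 95% counting intervals) and over all depths (red dashes). *Pdgfra*, *Olig1*, *Olig2*, *Sox10* and *Cspg4* lie near 1 within classes although their pooled ratios are near 0.75, while *C1ql1* and *Id2* stay below 1 in each class and *Mbp* reaches 0.127.

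Genes of other metabolic and signalling groups mostly differed by small ratios. None of the genes compared was 2-fold apart among 17 of cholesterol synthesis (median -0.21), 15 of glycolysis (median 0.03), 19 of ribosome biogenesis (median 0.30) and 13 immediate early genes. Over all genes compared 4.04% were at least 2-fold higher and 2.58% lower, so counts of 0 in these lists are near that share. Of the ribosome genes 8 had an interval above 1 and 0 below it, and of the cholesterol genes 0 and 6. Glycolysis had 2 and 3 and the immediate early genes 1 and 2, beside 13.8% and 14.1% of all genes. *Npm1* and *Ncl*, nucleolar proteins of ribosome assembly, stood 1.44-fold (1.35 to 1.54) and 1.42-fold (1.29 to 1.55) higher. Of 23 growth factor receptors, feedback genes and Myc family members 1 was 2-fold lower, and *Egfr* stood at 36.3 and 28.4 CPM (1.28, 0.961 to 1.69) and *Mycn* at 36.8 and 32.2 CPM (1.15, 0.865 to 1.5).

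The genes with the lowest upper bound of the ratio were few and mostly at low counts. *Pnpla3*, a lipid hydrolase gene, had 1 UMI in the cycling cells and 50 in the others, a ratio of 0.0876 (0.00146 to 0.344). The microglial complement genes *C1qa* and *C1qc* had 0 UMIs against 27 each, at least 3.05-fold lower, the chemokine *Ccl2* 0 against 29, at least 3.28-fold lower, and *Cntnap5a*, a cell adhesion gene, 0 against 26, at least 2.94-fold lower, each against a floor of 3 UMIs over the group. With the counting error of both groups the intervals of these ratios reached 0.432 for *C1qa* and *C1qc*, 0.4 for *Ccl2* and 0.449 for *Cntnap5a*, and the UMIs came from 0.66%, 0.42%, 0.3% and 1.32% of the 1668 cells. *4632404H12Rik* had 2 against 48 UMIs (0.152, 0.0145 to 0.469), *Ckmt1*, a mitochondrial creatine kinase, 4 against 67, *Tmie*, a gene of the hair cell transduction complex, 9 against 108 and *Kcnmb4os2* 17 against 165. *Mbp* completed the 10.

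Cycling cells of the other lineages were set beside the non-cycling cells of their own lineage in the same way. For the mitosis list the median log2 ratio was 3.33 in precursors, 3.74 in neuronal progenitors and 3.90 in astroglia, and for replication 1.28, 1.93 and 2.14. Chromatin genes stood at 0.95, 1.18 and 1.17. The precursor identity list stood at -0.42, -0.22 and -0.69 and the committed list at -0.61, -0.79 and -0.96. The cycling cells of the 3 lineages differed in depth, with medians of 5681.5, 9015 and 7594 UMIs, and no difference between lineages was tested. For *Cdkn2c* the log2 ratios were 2.29, 1.85 and 2.24.

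The 332 cells varied among themselves from replication to mitosis. Per cell the replication list gave 0 to 127 UMIs (median 12) and the mitosis list 1 to 554 UMIs (median 36). Thinned to 1400 UMIs the medians were 3 and 12.5, against 1 and 2 in the precursors with 0 cycle UMIs and 1 and 2 in neurons. The cells were described in 3 groups set from these counts. In 152 cells (mitosis-rich) mitosis UMIs were at least 4 times the replication UMIs, in 56 cells (replication-leaning) replication UMIs were at least as many as mitosis UMIs, and 124 lay between. The groups are ranges of a continuous count, 153 cells lay near a limit (mitosis UMIs from 3 to below 5 times, or from 0.5 to 2 times, the replication UMIs), and the levels of the list genes in them follow from the choice. Median depths were close, at 6074.5, 5675 and 5485 UMIs.

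**Figure D5:**
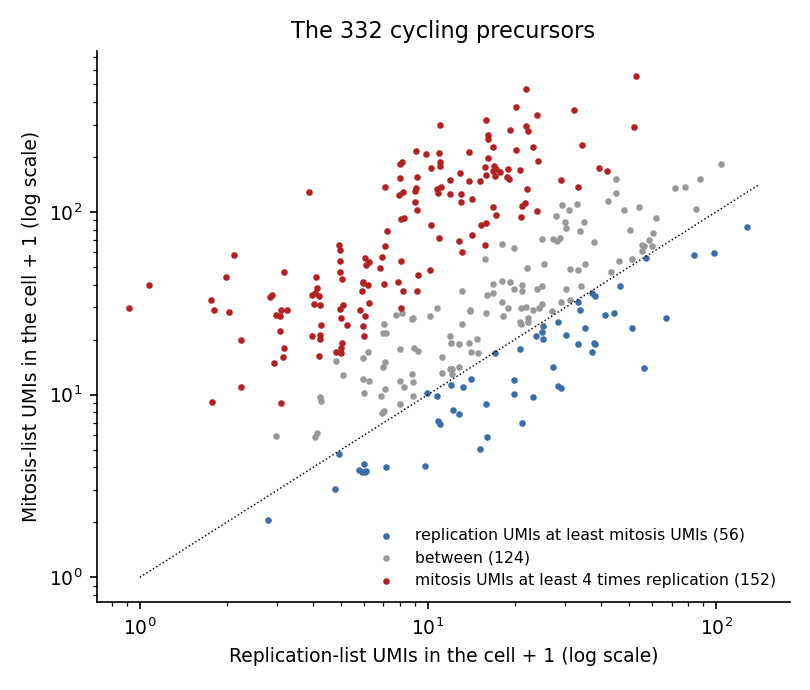
Each point is 1 of the 332 cycling precursors, placed by its replication-list UMIs plus 1 (x axis, log scale) and its mitosis-list UMIs plus 1 (y axis, log scale), with a small jitter. Red points are the 152 mitosis-rich cells, blue the 56 replication-leaning cells and grey the 124 between, and no gap separates them.

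The genes of the rule reached the groups unequally. *Top2a* had a UMI in 86.2% of mitosis-rich, 91.1% of intermediate and 85.7% of replication-leaning cells, *Cdk1* in 63.2%, 60.5% and 55.4%, but *Mki67* in 78.9%, 64.5% and 33.9%. These genes chose the cells, and their summed UMIs had a median of 5.5 in mitosis-rich and 3 in replication-leaning cells. Genes outside both lists differed too. *E2f1*, an activator of S phase genes, stood at 10.7 and 90.5 CPM (0.122, 0.0514 to 0.248). *Tyms* stood at 61.8 and 235 CPM (0.263, 0.184 to 0.374), while *Tk1* was closer, at 71.4 and 51.3 CPM (1.36, 0.808 to 2.53).

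Some chromatin genes and INK4 inhibitors stood higher at the mitotic end. Of 34 chromatin genes compared 12 had an interval above 1, 21 one that included 1 and 1 one below it, *Nasp*, a histone chaperone (0.551, 0.419 to 0.731), and the median log2 ratio was 0.30. Over all 6562 genes compared between these groups 9.75% had an interval above 1 and 6.61% one below it. Of 3 inhibitors compared 2 had an interval above 1. *H2afx* stood at 766 and 184 CPM (4.13, 3.20 to 5.50), *Hmgb2* at 2087 and 666 CPM (3.13, 2.72 to 3.62) and *Lmnb1* at 282 and 145 CPM (1.93, 1.43 to 2.71), whereas *Ezh2* stood at 142 and 157 CPM (0.898, 0.651 to 1.27). *Cdkn2c* stood at 332 and 87.5 CPM (3.74, 2.59 to 5.77) and *Cdkn2d* at 266 and 60.3 CPM (4.32, 2.80 to 7.36). *Setd8* stood at 126 and 75.4 CPM (1.64, 1.08 to 2.68), and at 2.08 (0.941 to 5.94) in cells under 6000 UMIs and 1.43 (0.875 to 2.58) in deeper ones, where each interval included 1.

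The D-type cyclins *Ccnd1* and *Ccnd2* and single genes of the gate, Notch and Id and committed lists stood lower at the mitotic end, whereas the precursor identity list was near equality. Of its 27 genes compared 2 had an interval above 1 and 2 below it, the median log2 ratio was -0.01, and its summed level was 17710 CPM (17440 to 17980) in mitosis-rich and 16350 CPM (15920 to 16790) in replication-leaning cells. *Fabp7*, a fatty acid binding protein of that list, stood higher at the mitotic end, at 5729 and 4228 CPM (1.36, 1.28 to 1.44). It held a large part of the summed level, so the gap between the sums rests mostly on this 1 gene. *Id1* (2.38, 1.39 to 4.64) stood higher at the mitotic end as well. *Ccnd1* stood at 151 and 268 CPM (0.563, 0.429 to 0.743) and *Ccnd2* at 379 and 679 CPM (0.559, 0.472 to 0.664), while *Ccnd3*, at 95.9 and 127 CPM, had an interval that included 1 (0.752, 0.519 to 1.12). *C1ql1* stood at 310 CPM in mitosis-rich, 478 CPM in intermediate and 672 CPM in replication-leaning cells, a ratio of 0.461 (0.386 to 0.551), and the ratio was 0.471 (0.358 to 0.619) under 6000 UMIs and 0.521 (0.409 to 0.669) from 6000. *Dll3* stood at 30.9 and 109 CPM (0.286, 0.168 to 0.477), *Bcas1* at 24.5 and 75.4 CPM (0.326, 0.176 to 0.597) and *Id2* at 194 and 290 CPM (0.668, 0.520 to 0.867). Under 6000 UMIs and from 6000 *Ccnd2* (0.543 and 0.504) and *Dll3* (0.186 and 0.376) had intervals below 1, whereas *Ccnd1* (0.765, 0.476 to 1.26) and *Id2* (0.638, 0.380 to 1.09) had one that included 1 under 6000, and *Bcas1* (0.502, 0.231 to 1.19) from 6000. *Olig2* (1.07, 0.909 to 1.27), *Pdgfra* (1.14, 0.979 to 1.33), *Sox10* (0.902, 0.683 to 1.22) and *Cspg4* (1, 0.701 to 1.48) had intervals that included 1, and *Olig1* was close to it (0.890, 0.817 to 0.971).

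Some genes outside the lists, chosen after their values were seen, marked the ends of the range. *Ung*, the glycosylase that removes uracil from DNA, stood at 6.39 CPM in mitosis-rich and 130 CPM in replication-leaning cells (0.0528), and *Tcf19* at 23.4 and 99.5 CPM (0.237). *Psrc1*, a microtubule-associated protein, had 90 UMIs in mitosis-rich and 0 in replication-leaning cells. *Higd1b* and *Ndufa4l2*, genes known from pericytes, also stood higher in mitosis-rich cells, at 360 and 18.1 CPM and at 112 and 6.03 CPM. The vascular list summed to 712 CPM in mitosis-rich, 583 CPM in intermediate and 84.4 CPM in replication-leaning cells, and called doublets numbered 28, 30 and 9. The part of RNA from vascular or other cell types in these differences was not tested.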

How the data were processed

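The authors deposited UMI counts per gene and barcode for 3 10X Genomics libraries (P5, 12w and 24w, 1 each). The submitters' processing notes name Cell Ranger 2.2.0, Seurat 4.1.0 and mm10. Barcodes needed 1000 UMIs, 500 genes and no more than 10% mitochondrial UMIs, and precursors and cycling cells were gated on UMIs as stated above. UMIs were pooled per group and scaled to CPM. A gene was compared with at least 20 UMIs in the higher group, and list medians used genes with at least 20 UMIs in both groups together. With 1 library per age no test was run. Depth was equalised by thinning each cell to 1400 UMIs. Doublets were called within the library by Scrublet (scanpy 1.11.5) and kept. Python 3.11.15 with numpy 2.4.6, scipy 1.17.1, pandas 2.3.3 and matplotlib 3.10.9 was used, and the ratio and its interval were tested on simulated data. Promoter windows were matched by Ensembl ID, symbol or synonym.

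Genes named are those of the gene lists and, beyond them, the 10 highest and 10 lowest by the bound of the interval nearer to 1. Mitochondrial, ribosomal protein, *Xist*, Y-linked and rule genes were left out of these. The members and lists were chosen with earlier results of these data known, and the depth classes, the groups within the cycling cells, the neuron class and 2 cell sets were chosen after seeing the data. Strand was not used in pooling, and reads of genes with near-identical copies may be split between them. The bulk RNA-seq, CUT&RUN, ATAC-seq and single-cell ATAC files were not used here. A few of the genes that the naming rule covers are not reported here.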

Additional observations from a re-analysis of the deposited data

How the results depend on the processing

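The median log2 ratio stayed between 3.08 and 3.67 for mitosis genes, between 1.15 and 1.34 for replication genes and between -0.69 and -0.19 for committed and myelin genes over 15 alternatives each. That of precursor identity genes was -0.03 in cells of 4000 to 8000 UMIs and -0.22 without cells with 3 UMIs of other types. The cycling share was 16.9% in cells of 4000 to 8000 UMIs, 15.9% in cells with *Xist* and no Y-linked UMI, 11.9% without cells with 3 UMIs of the 24 markers of other types, 12.1% without cells with 3 UMIs of *Aqp4*, *Gja1* and *Slc1a2*, 11.5% without all of these and doublets, and 7.73% with a limit of 4 cycle UMIs. Genes at least 2-fold higher numbered 300 in cells of 4000 to 8000 UMIs, 240 in cells with *Xist* only, 304 in cells with Y-linked UMIs only, 283 without doublets and all other-type and astroglial cells, 222 after thinning, 939 at a fold of 1.5, 291 at 50 pooled UMIs and 1851 at 1. Genes at least 2-fold lower numbered 457 in cells with Y-linked UMIs only, 469 without astroglial cells, 550 with 4 cycle UMIs, 461 after thinning, 1142 at a fold of 1.5, 122 at 50 pooled UMIs and 963 at 1. For the last 3 the rule itself sets the number, and for the others the cause was not tested. Mitosis-rich cells made up 51.4% of the cycling cells without doublets and other-type cells, against 45.8%.

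A change of sign was counted only for genes at least 2-fold apart in the main comparison. Smaller ratios could also cross 1, as in cells of 4000 to 8000 UMIs, where *Olig1* stood at 1.07 and *Pdgfra* at 1.18. Of 1170 values of 90 named genes over 13 alternatives, 917 lay within the interval of the main comparison and 248 outside it. Those outside numbered 33 of 90 in cells of 4000 to 8000 UMIs, 32 in cells with *Xist* only and 28 after thinning. They numbered 0 when levels were scaled by the median over all genes. The remaining 5 values were counted as having the opposite sign. Each had 0 UMIs in the cycling cells and 0 or 1 in the others, so the 0.5 UMIs added set these values and they give no direction. These were *Ccl2* at 0.21 in cells of 4000 to 8000 UMIs, *C1qc* at 1.41 in cells with *Xist* only, 0.48 without other-type cells and 2.15 without doublets as well, and *Cntnap5a* at 0.57 in that last set. No paired analysis was possible because each age is 1 library. The cells of 1 library are not replicates, so the intervals say nothing of differences between animals.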
